A study of Mus musculus with 7 samples.

Results

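Transcripts of 7 genes that build the egg coat and equip the egg surface for sperm were examined in single mouse oocytes: Zp1, Zp2, Zp3, Astl, Izumo1r (also called Folr4), Cd9 and Cd81. They were taken by symbol as a list of egg coat, sperm-binding and cortical granule genes, and all 7 were found among the 37620 gene identifiers of the table. Of the 7, 6 were above the expression filter, which asks for FPKM (fragments counted per length of the gene and per depth of the library) of at least 1 in at least 3 libraries and which 8033 genes met. Cd81 was the member below it. The samples were 4 KO oocytes with genotype Hiraf/f, Zp3-Cre and 3 WT oocytes with genotype Hiraf/f. All were MII oocytes, halted in the second meiosis as they are when ovulated, all carried the floxed Hira alleles, and each library came from 1 whole oocyte. Hira encodes a chaperone that deposits the histone variant H3.3, and the Cre recombinase was driven by the promoter of Zp3, itself a member, which is active in growing oocytes. The labels give no strain, age or animal, and a further control oocyte that the design text counts was not analysed here. Since no animal is named, each genotype counts as 1 sample, no test was made, and the ± SD below is the spread between single oocytes. "Higher" and "lower" describe these libraries only, and every level is a share of the RNA sequenced from that oocyte.

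The zona pellucida is the extracellular coat of the egg. In the mouse it is built from the glycoproteins ZP1, ZP2 and ZP3, which the oocyte makes and secretes while it grows. ZP2 and ZP3 form the filaments, ZP1 crosslinks them, and the outer end of ZP2 is the part that sperm bind. After fertilization, cortical granules release ovastacin, the protease encoded by Astl, which cleaves ZP2 so that further sperm no longer bind. On the egg membrane, JUNO (the product of Izumo1r, held by a lipid anchor) binds IZUMO1 on sperm. The tetraspanin CD9, which sits on the egg's microvilli, is needed for the gametes to fuse, and the related tetraspanin CD81 has a partly overlapping role. Transcripts of the zona genes are abundant in growing oocytes and decline as oocytes mature.

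Reads in genes numbered 15340782 to 25940519 per oocyte. The deleted gene was lower in every KO library: Hira was at 0.078 ± 0.036 FPKM in KO oocytes and 0.317 ± 0.028 FPKM in WT oocytes, from 49 and 132 reads. Of its annotated exonic bases, 44.7% are shared with a readthrough gene on the same strand. The oocyte identity of the libraries was clear, since all 10 oocyte markers were above the filter. Markers of the surrounding follicle cells (cumulus and granulosa) were nearly absent: 25 of 29 averaged under 1 FPKM in KO and in WT oocytes. The summed FPKM of all 29 was 34.2 to 37.7 in KO and 25.6 to 27.6 in WT oocytes. Most of that sum was Cyp19a1, and 14 of the 29, Amh, Foxl2, Krt18 and Gja1 among them, were listed at 0 in all 7 libraries. The part of such cells in the differences below was not tested. Over all genes above the filter the KO mean of log2(FPKM + 1) minus the WT mean, called the difference from here on, had a median of 0.18. It was -0.01 with median-ratio scaling of the libraries and 0.00 with quantile normalization. Among genes with a mean FPKM of at least 10 the 3 medians were 0.07, -0.17 and -0.01. Zp1, Zp2, Zp3, Astl and Cd9 were of that level. A difference is thus to be read against the median for its level and its scaling. The median over the 7 members was -0.25, and -0.49 and -0.31 under these scalings. Over 1.5-fold higher in KO were 1814 genes and over 1.5-fold lower 636 genes. The counts were 1204 and 1140 with median-ratio scaling and 1154 and 1018 with quantile normalization. The shares of all genes whose genotypes did not overlap were counted in the deposited FPKM only.

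The promoter sequences below show the start regions of 3 members with different roles: the egg coat gene Zp3, whose promoter also drives the Cre of the KO oocytes, the protease gene Astl, and Cd9, the 1 member whose genotypes did not overlap. They are RefSeq sequences of build GRCm38.p6, from 250 bases before to 50 after a gene's start, at chr5:135979855-135980154 (plus strand) for Zp3, chr2:127341386-127341685 (plus strand) for the second of the 2 starts listed for Astl, and chr6:125494711-125495010 (minus strand) for Cd9. Capitals mark E-boxes, the 6 letters CANNTG, where N is any base. The pattern is the same on both strands, though a single site such as CAGGTG is not. E-boxes are the kind of site that the oocyte factor FIGLA binds in zona gene promoters.
Zp3: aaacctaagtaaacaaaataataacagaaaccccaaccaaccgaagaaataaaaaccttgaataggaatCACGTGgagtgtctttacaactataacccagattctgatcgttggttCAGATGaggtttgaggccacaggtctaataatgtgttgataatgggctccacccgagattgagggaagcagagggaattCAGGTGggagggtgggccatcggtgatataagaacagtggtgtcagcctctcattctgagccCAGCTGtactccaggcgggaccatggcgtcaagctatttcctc
Astl: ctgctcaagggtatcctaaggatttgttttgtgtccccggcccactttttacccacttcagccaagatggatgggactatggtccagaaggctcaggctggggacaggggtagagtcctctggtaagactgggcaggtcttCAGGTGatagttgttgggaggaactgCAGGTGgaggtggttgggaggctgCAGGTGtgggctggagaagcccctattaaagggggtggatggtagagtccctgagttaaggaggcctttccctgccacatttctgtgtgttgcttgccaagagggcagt
Cd9: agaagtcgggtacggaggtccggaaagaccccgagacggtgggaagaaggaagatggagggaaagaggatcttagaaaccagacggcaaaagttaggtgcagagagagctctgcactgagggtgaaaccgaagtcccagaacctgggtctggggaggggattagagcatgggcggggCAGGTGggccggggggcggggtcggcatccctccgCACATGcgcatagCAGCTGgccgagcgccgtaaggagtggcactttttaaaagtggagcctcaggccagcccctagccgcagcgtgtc
The Zp3 window held 4 E-boxes, which began 181, 134 and 55 bases before and 7 bases after the start. The first of them reads CACGTG, which 7.15% of the 32851 promoters in the table hold. The Astl window held 3, all with the letters CAGGTG, which 20.2% of promoters hold on either strand. Cd9 held 3 different ones within 73 bases of the start. At least 1 E-box stood in 72.3% of all promoters of this length, at least 3 in 17.6% and at least 4 in 6.49%. The windows of Cd81 and Izumo1r held 1 each, and that of the first Astl start held none. The promoter table matched 5 of the 7 members, and Zp1 and Zp2 were not among them. These matches describe letters and are not evidence of binding.

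Zp2 was the member furthest below WT, and its proportion to the other zona genes was lower too. Its level was 35.2, 74.9, 86.4 and 44.7 FPKM in KO1 to KO4, against 111, 79.9 and 169 FPKM in WT1, WT2 and WT4. KO1, KO2 and KO4 lay below every WT oocyte, while KO3 was above WT2, so the groups overlapped. The mean was 60.3 ± 24.3 FPKM in KO and 120.1 ± 45.5 FPKM in WT oocytes (n = 4 and n = 3), from 15793 and 18145 reads. The difference was -1.01, which made Zp2 the 1 member over 1.5-fold lower in KO. Among all genes above the filter 7.92% were over 1.5-fold lower, and among those with a mean FPKM of at least 10 the share was 9.63%. Zp2 lay at the 2-fold limit, which 2.34% and 2.48% of these genes passed downward: the WT mean was 1.99 times the KO mean, and the difference was short of 2-fold without KO1 (-0.78), KO4 (-0.89) or WT4. The difference was -0.72 without WT4 and -1.26 without WT2, and with median-ratio scaling it was -1.25 and every KO oocyte lay below every WT oocyte. With quantile normalization it was -0.99 and the groups overlapped. In the deposited FPKM no member had all KO oocytes below all WT oocytes. That pattern was found in 8.94% of genes above the filter and in 14.4% of those with a mean FPKM of at least 10.

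Zp3, the most abundant member in both genotypes, overlapped broadly between them. It was at 110.2, 141, 134 and 95.2 FPKM in KO1 to KO4, against 153, 96.7 and 193 FPKM in WT1, WT2 and WT4. KO4 alone was below the lowest WT oocyte, and none was above the highest. The mean was 120.2 ± 21.2 FPKM in KO and 148 ± 48.6 FPKM in WT oocytes, a difference of -0.26 that was -0.04 without WT4. The values cover the whole gene, so any transcripts of the Cre transgene that carry Zp3 sequence would not be separated from those of Zp3 itself.

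Zp1 varied widely from oocyte to oocyte and showed no steady offset between genotypes. It was at 21.8, 51.6, 67.0 and 29.7 FPKM in KO1 to KO4, against 35.2, 29.2 and 96.7 FPKM in WT1, WT2 and WT4. WT4 was the highest of all and KO1 the lowest, with the other oocytes of both genotypes interleaved. The mean was 42.5 ± 20.6 FPKM in KO and 53.7 ± 37.4 FPKM in WT oocytes. The difference of -0.25 rested on WT4: without that oocyte it was 0.27, and without KO1 it was 0.01. Zp1, Zp2 and Zp3 share no stretch of 50 bases with transcripts of other genes in the GENCODE M21 annotation and overlap no other gene there, so their reads are not split with a copy.

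**Figure D1:**
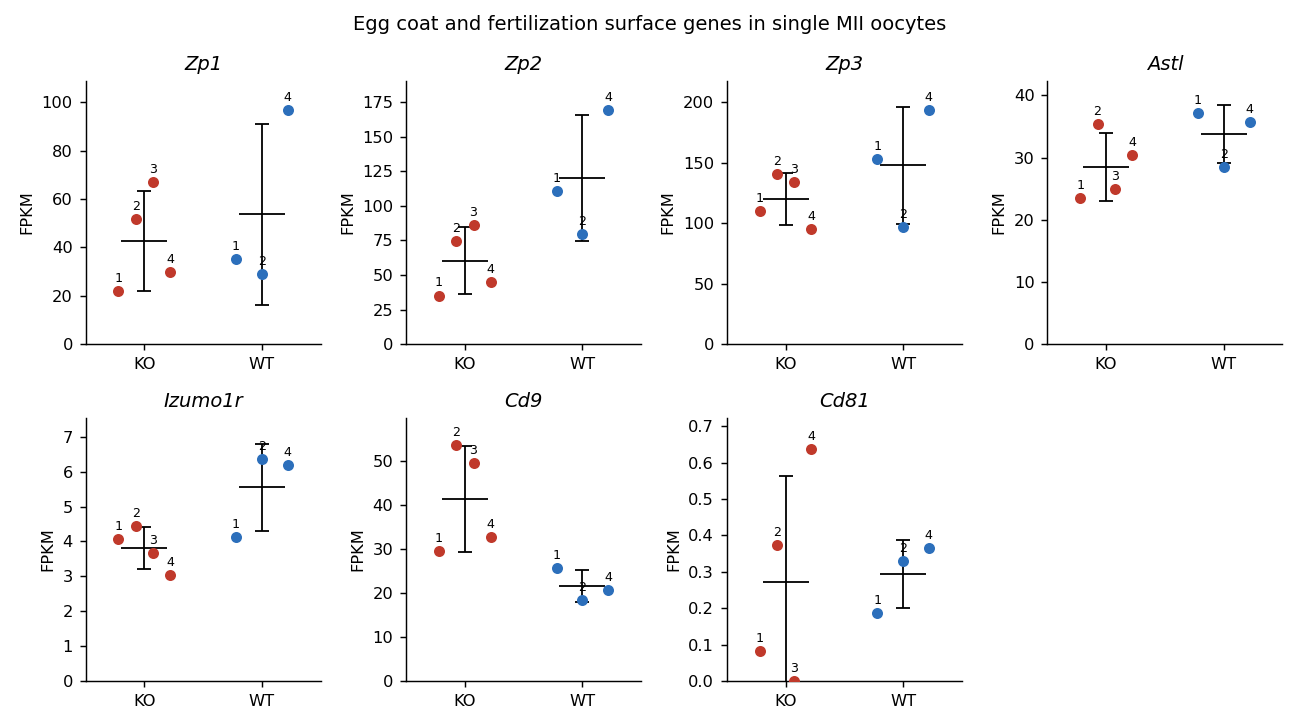
FPKM of the 7 genes in single oocytes (points, numbered by oocyte), with KO in red on the left of each panel and WT in blue on the right; bars are mean ± SD over 4 KO and 3 WT oocytes, and each axis starts at 0. Cd9 is the 1 panel in which every KO point lies above every WT point, and in the Zp2 panel KO3 (86.4) lies above WT2 (79.9).

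The share of Zp2 in the zona transcripts was lower in KO oocytes. Such shares do not depend on a scaling by 1 factor per library. Of the summed FPKM of the 3 zona genes, Zp2 made up 21.04%, 28.0%, 30.0% and 26.4% in KO1 to KO4, against 37.0%, 38.8% and 36.9% in WT1, WT2 and WT4. Every KO oocyte was thus below every WT oocyte, and the WT oocytes lay within 2 percentage points of each other. The mean was 26.4% ± 3.85 in KO and 37.6% ± 1.09 in WT oocytes. Zp3 made up 55.4% ± 8.05 in KO and 46.8% ± 4.57 in WT oocytes, and Zp1 made up 18.3% ± 4.25 and 15.7% ± 4.82, both with overlap.

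The same was seen in ratios between pairs of genes. The ratio of Zp2 to Zp3 was 0.319 to 0.643 in KO and 0.723 to 0.876 in WT oocytes, and that of Zp1 to Zp2 was 0.620 to 0.776 in KO and 0.317 to 0.571 in WT oocytes. Neither overlapped. Quantile normalization, which can alter proportions between genes, left the Zp2 share at 20.2% to 30.6% in KO and 37.1% to 38.6% in WT oocytes, and the ratio of Zp2 to Zp3 at 0.300 to 0.665 in KO and 0.742 to 0.896 in WT oocytes. The ratio of Zp1 to Zp3 averaged 0.344 ± 0.125 in KO and 0.344 ± 0.140 in WT oocytes. Of 2782 other genes with a mean FPKM of at least 10, 2.26% had a ratio to Zp3 that was lower in every KO than in every WT oocyte, and 17.1% one that was higher. The summed zona FPKM itself was 223 ± 63.5 in KO and 322 ± 128 in WT oocytes and overlapped.

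**Figure D2:**
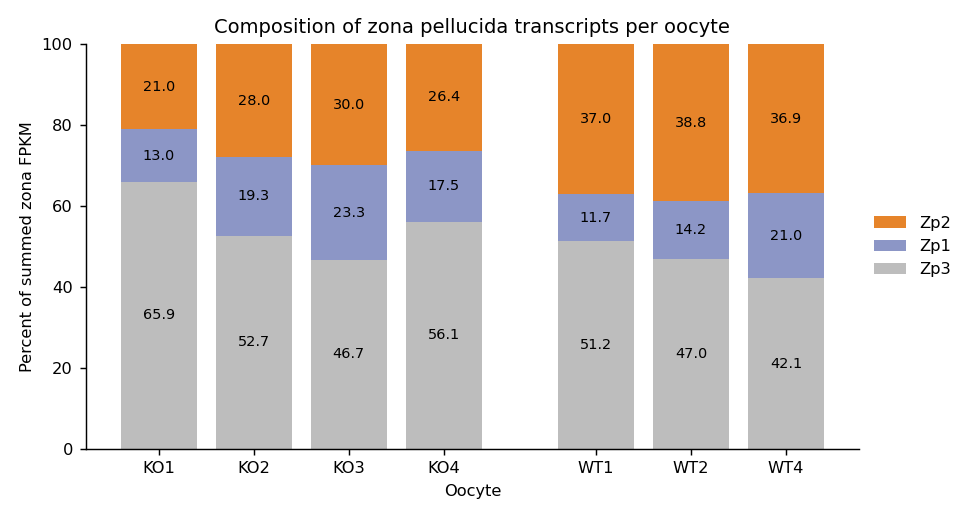
Percent of the summed FPKM of Zp1, Zp2 and Zp3 that each gene made up in every oocyte, with KO1 to KO4 on the left and WT1, WT2 and WT4 on the right (each bar adds to 100%). The Zp2 segment is at most 30.0% in KO oocytes and at least 36.9% in WT oocytes.

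Within a genotype the zona genes moved together from oocyte to oocyte. Taking each oocyte's deviation from its genotype mean on the log2(FPKM + 1) scale, Zp1 and Zp2 had a Pearson correlation of 0.96 over the 7 oocytes, and it lay between 0.95 and 0.99 when any 1 oocyte was left out. Zp2 with Zp3 had 0.83 (0.76 to 0.94) and Zp1 with Zp3 had 0.80 (0.64 to 0.89). Oocytes KO3 and WT4 were high and KO1 and WT2 low in Zp1 and Zp2. Without the centring, the correlation of Zp1 with Zp2 was 0.79. Cd9 followed Zp2 in these deviations (0.77, and 0.64 to 0.96 with 1 oocyte left out). In WT4, though, Zp2 deviated by 0.56 and Cd9 by -0.05. The offset of Cd9 between genotypes had the opposite sign, and its uncentred correlation with Zp2 was -0.28. Astl followed Zp2 less closely (0.46), and Izumo1r did not (0.12). The values of 1 oocyte share its library and depth, and these correlations are descriptions over few cells. They were not set against those of other gene pairs, so they do not show a trait particular to the zona genes.

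The spread between oocytes of a genotype was wide for Zp1 and Zp2. The highest KO oocyte was 3.07 times the lowest for Zp1 and 2.45 times for Zp2, and in WT the figures were 3.32 and 2.12. The median gene with a mean FPKM of at least 10 had 1.42 in KO and 1.43 in WT oocytes. A spread as wide as that of Zp1 was found in 2.23% of these 2783 genes in KO and 2.52% in WT oocytes. For Zp2 the shares were 4.74% and 13.7%. Astl, by contrast, had a spread of 1.51 in KO and 1.30 in WT oocytes, which 40.0% and 65.7% of genes matched or passed.

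**Figure D3:**
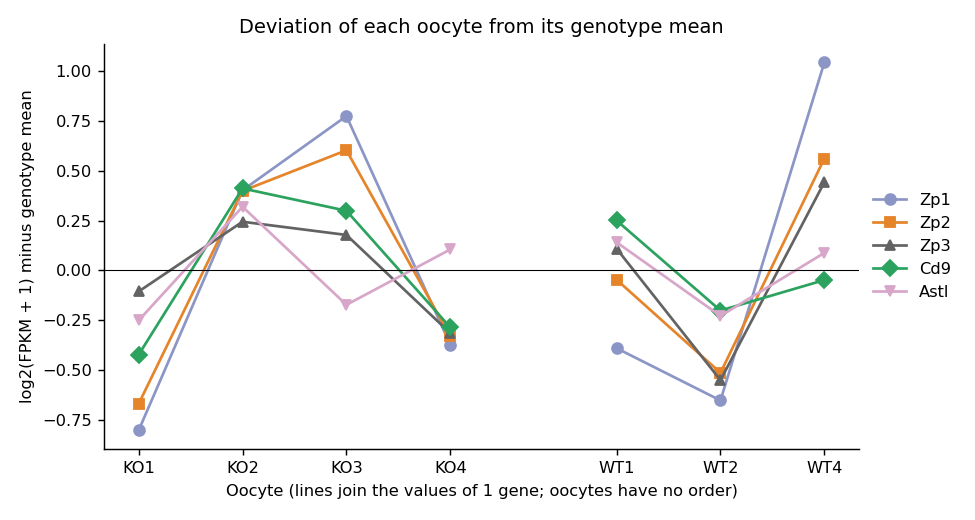
Deviation of each oocyte from the mean of its genotype, in log2(FPKM + 1), for Zp1, Zp2, Zp3, Cd9 and Astl; lines join the values of 1 gene and oocytes have no order. Zp1 and Zp2 are high together in KO3 and WT4 and low together in KO1 and WT2.

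Astl was somewhat lower in KO oocytes, within 1.5-fold and with overlap in the deposited FPKM. It was at 23.5, 35.4, 24.9 and 30.4 FPKM in KO1 to KO4, against 37.1, 28.5 and 35.7 FPKM in WT1, WT2 and WT4. KO1 and KO3 were below every WT oocyte and KO2 and KO4 within the WT range. The mean was 28.6 ± 5.45 FPKM in KO and 33.8 ± 4.63 FPKM in WT oocytes, a difference of -0.24. With median-ratio scaling the difference was -0.48 and the groups no longer overlapped. The share of all genes apart under that scaling was not counted. The median difference of genes with a mean FPKM of at least 10 was then -0.17. With quantile normalization it was -0.35 and they overlapped. The gap between Astl and its substrate gene Zp2 was smaller in KO oocytes: Zp2 was 1.47 to 3.47 times Astl there, and 2.80 to 4.74 times in WT oocytes, with overlap.

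Izumo1r was a transcript of middling abundance and somewhat lower in KO oocytes. It was at 4.07, 4.44, 3.66 and 3.04 FPKM in KO1 to KO4, against 4.12, 6.36 and 6.18 FPKM in WT1, WT2 and WT4. KO1, KO3 and KO4 were below every WT oocyte, and KO2 was above WT1. The mean was 3.80 ± 0.597 FPKM in KO and 5.55 ± 1.25 FPKM in WT oocytes, from 1440 reads (95% Poisson interval 1367 to 1516, counting error only) and 1332 reads (1261 to 1406). The difference was -0.44. It passed 1.5-fold with median-ratio scaling (-0.64), with quantile normalization (-0.68) and without WT1 (-0.61). Under both scalings the groups did not overlap, and the share of all genes apart under them was not counted. The other folate receptor genes were nearly silent, with Folr2 listed at 0 in every library and Folr1 at 0.227 FPKM at most.

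Cd9 was the 1 member higher in KO oocytes. It was at 29.7, 53.7, 49.6 and 32.7 FPKM in KO1 to KO4, against 25.7, 18.5 and 20.7 FPKM in WT1, WT2 and WT4. The KO oocytes all lay above the WT oocytes, as for 18.9% of all genes above the filter and 15.8% of those with a mean FPKM of at least 10. The mean was 41.4 ± 11.99 FPKM in KO and 21.6 ± 3.67 FPKM in WT oocytes, a ratio of 1.92, from 10063 and 3181 reads. The difference of 0.88 put it among the genes over 1.5-fold higher in KO, which made up 22.6% of all genes above the filter and 16.3% of those with a mean FPKM of at least 10. It was 0.64 with median-ratio scaling and 0.77 with quantile normalization, between 0.74 and 1.02 with any 1 oocyte left out, and the groups stayed apart under both scalings. Of the exonic bases of Cd9, 10.7% overlap a gene annotated on the opposite strand, and the kit does not mark strand, so reads from that stretch cannot be assigned.

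Cd81, the second tetraspanin, was barely detected in either genotype. KO1 to KO4 held 5, 28, 0 and 52 reads, and WT1, WT2 and WT4 held 12, 25 and 21. The level was 0.273 ± 0.291 FPKM in KO and 0.294 ± 0.095 FPKM in WT oocytes. The WT oocytes lay inside the KO range, and no difference was detectable at this depth. The difference of -0.05 was -0.45 with a pseudocount of 0.1.

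Set in order of mean FPKM, KO oocytes had Zp3 highest, then Zp2, Zp1, Cd9, Astl, Izumo1r and Cd81. WT oocytes had Zp3, Zp2, Zp1, Astl, Cd9, Izumo1r and Cd81. The place of Zp1 in these orders rested on 1 oocyte in each genotype. Without KO3, Zp1 averaged 34.4 FPKM and Cd9 38.7 FPKM in KO oocytes, and without WT4, Zp1 averaged 32.2 FPKM and Astl 32.8 FPKM in WT oocytes. Zp1 was above Cd9 in 1 of 4 KO oocytes and in 3 of 3 WT oocytes, with a ratio of Zp1 to Cd9 of 0.735 to 1.35 in KO and 1.37 to 4.68 in WT oocytes. Cd9 was above Astl in 4 of 4 KO oocytes and below it in 3 of 3 WT oocytes, with a ratio of Astl to Cd9 of 0.721 ± 0.183 in KO and 1.57 ± 0.144 in WT oocytes. In KO oocytes the ranges of Zp2 and Zp1, of Zp1 and Cd9 and of Cd9 and Astl overlapped, and those of Zp3 and Zp2 did not. In WT oocytes the ranges of Zp3, Zp2 and Zp1 overlapped from each gene to the next, as did those of Zp1 and Astl. Of all 15 ratios between the 6 members above the filter, 7 did not overlap between genotypes, and each of the 7 was among the 9 that involve Zp2 or Cd9. Over all pairs of 7665 genes above the filter with a value above 0 in every library, 26.4% of ratios did not overlap. None of the 6 ratios among Zp1, Zp3, Astl and Izumo1r was apart.

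The genes known to work beside CD9 on the cell surface were examined as a list of 35 tetraspanins, CD9 partners, integrins and membrane linkers, of which 15 were above the filter. Of these 15, Cd9 included, 6 passed 1.5-fold upward in KO, 2 passed it downward and 7 did neither, where 22.6% and 7.92% of all genes above the filter did. The median difference was 0.33 (0.22 with median-ratio scaling and 0.12 with quantile normalization). Ptgfrn, which encodes a direct CD9 partner of the immunoglobulin superfamily, was at 3.32, 3.68, 3.56 and 3.05 FPKM in KO1 to KO4, against 1.60, 0.449 and 0.427 FPKM in WT1, WT2 and WT4. The KO oocytes were tightly grouped and all above WT. Igsf8, another such partner, was at 0.096 FPKM at most. Itga6, the integrin alpha 6 chain, was at 34.4 ± 3.58 FPKM in KO and 17.8 ± 3.95 FPKM in WT oocytes without overlap (difference 0.93). Itgb1, the beta chain it pairs with, was at 8.82 ± 2.75 and 4.49 ± 1.38 FPKM in KO and WT, with KO3 inside the WT range. Itgb3, another integrin beta chain, was at 2.55 ± 0.768 in KO and 0.854 ± 0.757 FPKM in WT oocytes, without overlap except under quantile normalization. The tetraspanin Tspan13 was at 5.21 ± 0.921 in KO and 2.72 ± 0.756 FPKM in WT oocytes, also without overlap, but its difference of 0.75 was within 1.5-fold under both scalings (0.56 and 0.50).

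Lower in KO on the same list were the integrin alpha 9 chain gene Itga9 and Rdx. Itga9 was at 37.0 ± 3.63 FPKM in KO and 58.8 ± 12.6 FPKM in WT oocytes. Rdx, which encodes radixin, a linker of membrane proteins to actin, was at 605 ± 18.5 FPKM in KO and 1019 ± 113 FPKM in WT oocytes. Both were without overlap in the deposited FPKM and under both scalings, though under quantile normalization Rdx was within 1.5-fold (-0.56). The list thus held genes on either side. Of the other tetraspanin genes, Tspan3 was at 10.9 ± 1.70 FPKM in KO and 7.55 ± 0.375 FPKM in WT oocytes, without overlap in the deposited FPKM but with overlap under both scalings. Tspan5, Tspan12 and Tspan14 averaged 6.35 to 9.15 FPKM in KO and 7.78 to 9.37 FPKM in WT oocytes and overlapped. Lower still were Cd63 at 0.856 FPKM at most and Cd151 at 1.06 ± 0.547 FPKM in KO and 0.644 ± 0.454 FPKM in WT oocytes.

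**Figure D4:**
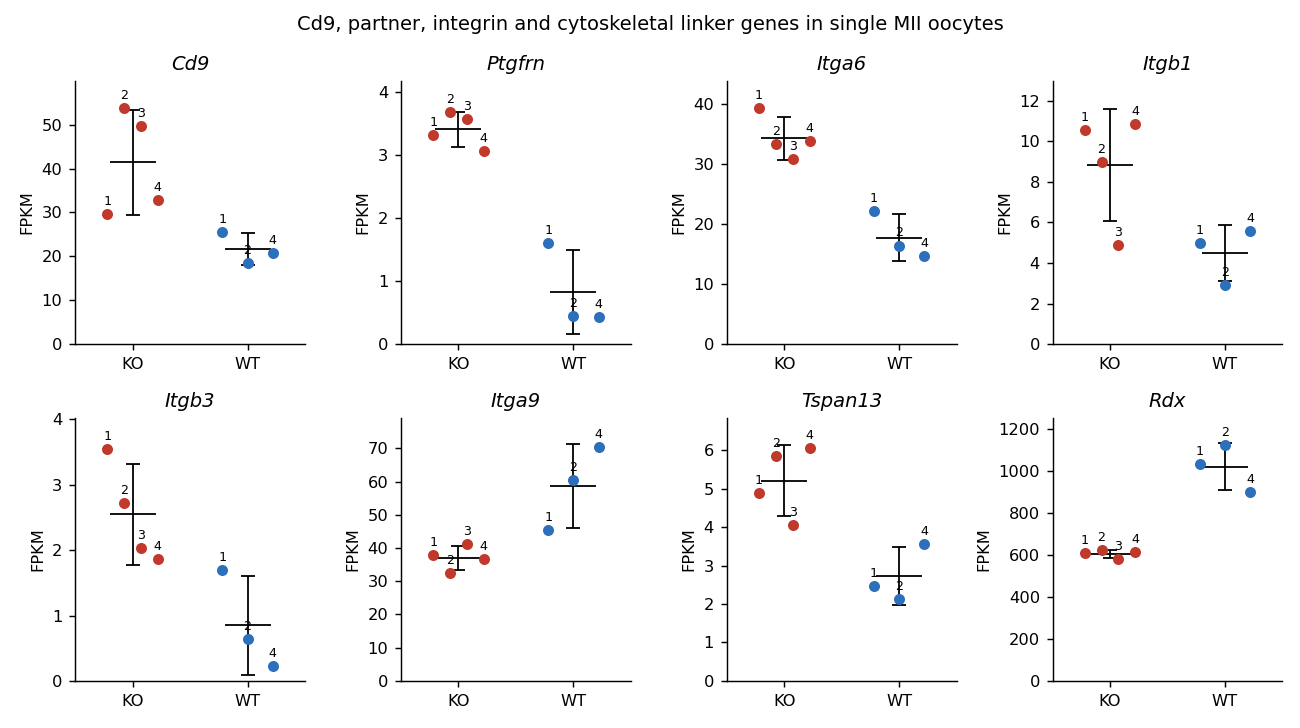
FPKM of Cd9 and 7 partner, integrin, tetraspanin and linker genes in single oocytes (points, numbered by oocyte; KO in red on the left, WT in blue on the right; bars are mean ± SD over 4 KO and 3 WT oocytes; axes start at 0). Itga9 and Rdx lie lower in every KO than in every WT oocyte, and in Itgb1 the point of KO3 lies inside the WT range.

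Several other genes for proteins that the oocyte secretes were lower in KO along with Zp2. Of the 7 genes of the egg coat and secreted protein list in the table, all above the filter, 4 were over 1.5-fold lower and none over 1.5-fold higher, against 7.92% and 22.6% of all genes above the filter. The 4 were Zp2, Oosp1, Oosp2 and Oosp3. Oosp3 was at a difference of -0.62 with overlap, since KO1 (1541 FPKM) lay above WT4 (1361 FPKM). Oosp1, an abundant oocyte-secreted protein gene, was at 1592 ± 264 FPKM in KO and 2496 ± 274 FPKM in WT oocytes, without overlap. Oosp2 was at 134 ± 21.3 in KO and 206 ± 13.7 FPKM in WT oocytes, without overlap. Under quantile normalization Oosp1 was at -0.47, Oosp2 at -0.52 and Oosp3 at -0.55, all within 1.5-fold. Oosp1 and Oosp3 overlapped there. Plac1, at low levels, lay on the other side at 1.63 ± 0.998 FPKM in KO and 0.725 ± 0.339 FPKM in WT oocytes, with overlap and within 1.5-fold (0.55).

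Transcription factors of the zona genes had a median difference of 0.53 above the filter, 0.36 with median-ratio scaling and 0.29 with quantile normalization. Figla, which encodes the E-box factor that activates zona genes, was at 3.21, 6.20, 4.80 and 6.32 FPKM in KO1 to KO4, against 4.33, 5.49 and 2.75 FPKM in WT1, WT2 and WT4. The genotypes overlapped, and the difference of 0.24 was 0.04 with median-ratio scaling. Nobox, a homeobox factor of the oocyte, was at 40.8 ± 2.73 in KO and 40.2 ± 1.11 FPKM in WT oocytes, a difference of 0.02 that turned to -0.22 with median-ratio scaling and -0.05 with quantile normalization. This list had 4 genes above the filter. Of these, 2 passed 1.5-fold upward and none downward, against 22.6% and 7.92% of all genes above the filter. The 2 were Tcf12 and Sohlh2. Tcf12, which encodes a partner for such factors, was at 2.25 ± 1.15 in KO and 0.874 ± 0.965 FPKM in WT oocytes. Sohlh2, a factor of early oocyte growth, was at 2.96 ± 1.43 in KO and 1.23 ± 0.721 FPKM in WT oocytes. Both overlapped, and Sohlh2 was within 1.5-fold under quantile normalization (0.57). Tcf4, which encodes another E-box factor, was below the filter and lower in every KO oocyte, at 0.171 ± 0.072 FPKM in KO and 0.597 ± 0.037 FPKM in WT oocytes, from 406 and 908 reads. It did not overlap under either scaling. Tcf3, also below the filter, went the other way at 0.907 ± 0.181 FPKM in KO and 0.468 ± 0.229 FPKM in WT oocytes. Its groups were apart in the deposited FPKM and overlapped under both scalings.

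Genes for folding, glycosylation and cleavage of secreted proteins were mostly within 1.5-fold. The filter left 12, of which 2 passed 1.5-fold upward in KO and none downward, against 22.6% and 7.92% of all genes above the filter. The median difference was -0.06, -0.24 with median-ratio scaling and -0.18 with quantile normalization. B4galt5, a galactosyltransferase gene, was at 4.59 ± 0.991 FPKM in KO and 1.64 ± 1.26 FPKM in WT oocytes, and Furin, a protease that cleaves secreted precursors, at 7.09 ± 0.805 in KO and 4.24 ± 1.02 FPKM in WT oocytes. Neither overlapped, but Furin was within 1.5-fold under both scalings (0.43 and 0.39). Pdia4, a disulfide isomerase gene, was at 2.63 ± 1.16 in KO and 4.85 ± 3.94 FPKM in WT oocytes, and its difference of -0.51 was 0.01 without WT4. It was over 1.5-fold lower with median-ratio scaling (-0.68) and quantile normalization (-0.74), with overlap in both. Canx, of the same list, was over 1.5-fold lower with median-ratio scaling (-0.61) but not with quantile normalization (-0.23).

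Genes of cortical granule transport and release, the route by which ovastacin leaves the egg, were also mostly within 1.5-fold. The filter left 14, of which 2 passed 1.5-fold upward in KO and none downward, against 22.6% and 7.92% of all genes above the filter. Of the 14, 1 was higher in every KO than in every WT oocyte and 3 were lower. These patterns held for 18.9% and 8.94% of all genes above the filter. The median difference of -0.05 was unsteady: it was -0.27 with median-ratio scaling, -0.24 with quantile normalization, and between -0.20 (without WT2) and 0.11 (without WT1) with 1 oocyte left out. Syt1, a calcium sensor of vesicle fusion, was at 6.54 ± 1.18 FPKM in KO and 2.74 ± 1.16 FPKM in WT oocytes without overlap. Napa, which helps to recycle the fusion machinery, was at 2.11 ± 1.07 in KO and 0.856 ± 0.438 FPKM in WT oocytes with overlap, and within 1.5-fold under both scalings (0.57 and 0.47). Rab11a, a GTPase of vesicle transport, was at 42.8 ± 4.95 in KO and 56.9 ± 7.02 FPKM in WT oocytes, without overlap at a difference of -0.40. It was over 1.5-fold lower with median-ratio scaling (-0.64) but not with quantile normalization (-0.44). Snap23 and Marcks were also lower in every KO oocyte, in the deposited FPKM and under both scalings. Snap23 was at 21.6 ± 2.22 FPKM in KO and 27.6 ± 1.41 FPKM in WT oocytes. Marcks was at 3.58 ± 0.621 FPKM in KO and 4.43 ± 0.229 FPKM in WT oocytes. Among the astacin proteases and their inhibitors, Tll1, a tolloid-like astacin, was at 5.73 ± 0.773 in KO and 11.2 ± 2.33 FPKM in WT oocytes without overlap. Fetub, whose product inhibits ovastacin and is known as a plasma protein made by liver, was at 15.1 ± 2.22 in KO and 14.1 ± 4.38 FPKM in WT oocytes. Its difference of 0.13 turned to -0.10 with median-ratio scaling and -0.04 with quantile normalization.

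The route that places JUNO on the membrane was represented by 15 genes above the filter in the list of folate receptors, lipid anchor synthesis and anchored proteins. In KO oocytes 1 of them passed 1.5-fold upward and 1 downward, against 22.6% and 7.92% of all genes above the filter. The median difference was -0.27 (-0.42 with median-ratio scaling and -0.53 with quantile normalization). The lower one was Cd55, itself an anchored protein that restrains complement, at 62.9, 74.7, 82.7 and 75.9 FPKM in KO1 to KO4, against 144, 135 and 121 FPKM in WT1, WT2 and WT4. The genotypes were far apart, with a WT mean 1.80 times that of KO. The higher one was Pgap2, which remodels the anchor, at 1.89 ± 0.338 in KO and 0.851 ± 0.214 FPKM in WT oocytes, though within 1.5-fold under both scalings (0.51 and 0.40). Pign, an anchor synthesis gene, was at 3.74 ± 0.478 in KO and 6.15 ± 1.93 FPKM in WT oocytes, with overlap. Under both scalings Pign did not overlap and was over 1.5-fold lower (-0.76 and -0.80).

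**Figure D5:**
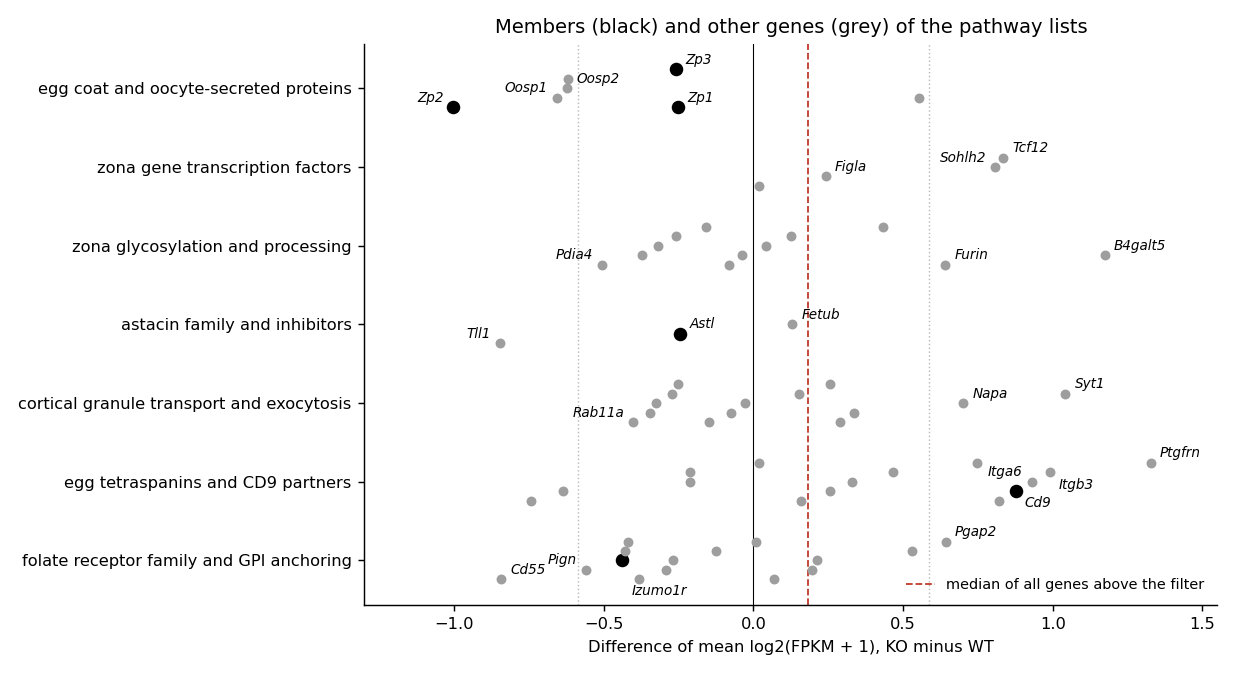
KO mean of log2(FPKM + 1) minus WT mean, for the members (black) and the other genes above the filter (grey) in 7 pathway lists; dotted lines mark 1.5-fold and the dashed line the median of all genes above the filter (0.18). Zp2 lies furthest left at -1.01, Izumo1r is the black point at -0.44, and Cd9 lies at 0.88 among other genes of its list on the right.

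Genes that belong to the sperm side of fertilization were mostly silent. Of 27 in the table, 12 were listed at 0 in every library, Izumo1 among them, and 5 were above the filter. The exception in level was Spam1, which encodes a hyaluronidase known from the sperm head. It was at 20.03, 26.6, 25.9 and 33.5 FPKM in KO1 to KO4, against 13.4, 8.75 and 7.94 FPKM in WT1, WT2 and WT4. The genotypes did not overlap, the difference of 1.33 was 1.10 with median-ratio scaling, and the gene shares no stretch of 50 bases with other transcripts. Hyal5, a second sperm hyaluronidase gene, went the other way at 0.443 ± 0.509 in KO and 1.82 ± 0.578 FPKM in WT oocytes, and so did Zp3r, an acrosomal protein gene, at 1.00 ± 0.834 in KO and 2.75 ± 0.275 FPKM in WT oocytes.

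The genes whose pattern over the 7 oocytes was most like that of each member were sought among 2558 or 2559 genes with a mean FPKM of at least 10 and an informative symbol, by Pearson correlation of log2(FPKM + 1). For Zp1 these were Banf1 (0.97) and Plekhj1 (0.95), for Zp2 Tmem14c (0.96) and Ppa1 (0.96), and for Zp3 Dad1 (0.97) and Wfdc3 (0.95). For Astl they were Dennd6a (0.97) and Tmem131l (0.95), and for Izumo1r Gtf2h3 (0.99) and Larp4b (0.98). Cd9 was matched by Dppa5a (0.98), whose difference was also 0.88, and by Washc2 (0.97). Tmem14c, the gene nearest Zp2, had a difference of -0.98 against -1.01 for Zp2. Cd81, at a few reads per library, had weaker matches, Hdlbp (0.88) and Ppp2r2a (0.87). No zona gene was among the nearest pair of another, and high values arise readily over 7 points.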

How the data were processed

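RNA was amplified from single oocytes with an ultra-low-input kit and sequenced on 2 lanes, per the labels' protocols, with spike-in RNA that was not used here. The authors deposited FPKM, not logged, with 1 value per gene and oocyte. The submitters' processing notes name the mm9 build and Bowtie 0.12.8, TopHat2 2.0.2, TopHat, Bowtie2, HTSeq and edgeR 3.1.10, without saying which step each served. Symbols came from GENCODE M21 on a later build and named 87.4% of identifiers.

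Read counts were recovered from the deposited FPKM, since low values are whole multiples of 1 step per gene and library. Whole reads came out within 0.01 for all 18300 genes with a value, as the smallest counts that could be fitted. On data simulated for the 7 libraries, 98.6% of 13053 genes with reads in at least 4 libraries were returned exactly. Read intervals are exact 95% Poisson intervals.

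Python 3.11.15, numpy 2.4.6, pandas 2.3.3 and scipy 1.17.1 were used. Differences are the KO mean minus the WT mean of log2(FPKM + 1), a scale that understates changes of low genes, and ratios are of mean FPKM. Members, lists and fold limits were chosen with earlier results of these data known. The text names all members, from each other list the 3 genes above the filter with the largest absolute differences, and for each member the 2 genes with the most similar pattern. Named after their values were seen were Oosp3, Plac1, Nobox, Tcf3, Tcf4, Canx, Snap23, Marcks, Tspan3, Tspan5, Tspan12, Tspan14, Itgb1, Itga9, Rdx and Tspan13. Igsf8, Cd63, Cd151, Folr1, Folr2, Cyp19a1, Amh, Foxl2, Krt18, Gja1 and Izumo1 were also named after their values were seen. Alternatives were pseudocounts of 0.1 and 5, median-ratio scaling, quantile normalization, no filter, a filter at FPKM 10, and leaving out each oocyte.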

Additional observations from a re-analysis of the deposited data

Results flagged for a closer look

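Hira in KO3 stood apart from the other KO oocytes, at 0.0242 FPKM from 5 reads, against 0.0941 to 0.0997 FPKM in the other KO oocytes. The gap to the nearest was 0.926 of the group's range, above Dixon's 95% critical value for 4 values. It was 1 flag among 35 genes checked in the KO group, and chance flags about 1 group in 20. None of the 7 egg coat and surface genes was flagged.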

How the results depend on the processing

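No paired analysis was possible because the labels do not say that a shared oocyte number marks a shared animal or day, and no test was made. Of 77 member differences under the alternatives, 2 moved by more than the SD between oocytes: Cd81 with a pseudocount of 0.1 (-0.45) and Astl with median-ratio scaling (-0.48). The median difference of the 7 members was -0.25, and -0.36 to -0.04 with 1 oocyte left out. Over 1.5-fold lower was 1 member, and 2 with median-ratio scaling and with quantile normalization (Zp2 and Izumo1r), and 1 to 2 with 1 oocyte left out. Over 1.5-fold higher was 1 member, Cd9, throughout. The Zp2 share of zona FPKM differed by -11.2 percentage points, and by -12.4 to -9.44 with 1 oocyte left out, and the ratio of Zp2 to Zp3 by -0.32, and by -0.37 to -0.26. With quantile normalization these were -11.6 and -0.34. These last alternatives were chosen after seeing the data. Of all genes, 1814 were over 1.5-fold higher and 636 lower. The counts were 631 and 285 with a pseudocount of 5, 1204 and 1140 with median-ratio scaling, 1154 and 1018 with quantile normalization, 536 and 288 with a filter at FPKM 10 (fewer genes tested), and 1586 to 2288 and 604 to 735 with 1 oocyte left out. Depth limits Cd81, at 0 to 52 reads per library, and Hira.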

Other observations

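Of 10 markers of the oocyte itself, 5 were over 1.5-fold lower in KO and none higher, against 7.92% and 22.6% of all genes above the filter. Among genes with a mean FPKM of at least 10 the shares were 9.63% and 16.3%. The median difference of the 10 was -0.49, -0.73 with median-ratio scaling and -0.26 with quantile normalization. Oosp1, 1 of the 5, was within 1.5-fold with quantile normalization (-0.47). Among the 5 were Dppa3, a protector of maternal methylation marks (5718 ± 1020.1 FPKM in KO and 9676 ± 285 FPKM in WT oocytes, difference -0.77, and -0.20 with quantile normalization), and Btg4, an adapter of maternal mRNA decay (2148 ± 136 and 3548 ± 271 FPKM in KO and WT). Among the follicle cell markers, Nr5a2 was at 7.25 ± 0.904 FPKM in KO and 2.53 ± 0.994 FPKM in WT oocytes, and Dcn at 0.342 ± 0.372 and 1.37 ± 0.381 FPKM in KO and WT. Fshr was listed at 0 in all WT oocytes and in KO1, and was at 2.99, 4.34 and 4.51 FPKM in KO2, KO3 and KO4. Their part in the differences of the egg coat and surface genes was not tested.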
